A study of Homo sapiens with 8 samples.

Results

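Open chromatin at 46 genes of DNA interstrand crosslink repair, nucleotide excision repair, homologous recombination and the damage signalling and bypass around them was compared in the ovarian cancer cell line A2780 and 3 drug-resistant derivatives of it. The 46 genes were listed by their known roles in repair, with earlier results of these data known. Measured levels entered the choice of each gene's peak. Each was read from its gene-end peak, defined as the peak with the highest mean over all 8 libraries among those within 1 kb of either end of the gene's RefSeq span on hg38, and from the further peaks over the span. All 46 had a gene-end peak, among 15952 protein-coding genes with such a peak. The spans of the 46 held 290 of the 158698 tested peaks, each 1001 bp wide.

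The assay was ATAC-seq. The Tn5 transposase cuts DNA where it is not packed in nucleosomes and leaves adapters there, so that reads pile up at open promoters and enhancers. There were 2 libraries in each of 4 groups, all of genotype WT per the labels: control A2780 with no treatment given, cisplatin-resistant A2780, paclitaxel-resistant A2780, and A2780 resistant to cisplatin and paclitaxel, called dual-resistant here. Separate cultures are not stated for the libraries within a group, so p-values measure the spread between libraries, which may be technical. How resistance was selected, whether a derivative is 1 clone and whether the cells were still on drug when collected is not stated in the sources used, and each derivative stands for its drug as 1 line.

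Cisplatin joins DNA bases within and between strands, while paclitaxel binds microtubules and does not itself modify DNA. Crosslinks between strands are recognised by the Fanconi anaemia core complex, which ubiquitinates the FANCI-FANCD2 pair. Nucleases then cut beside the lesion, translesion polymerases copy past it, and homologous recombination restores the broken fork. Adducts within a strand are removed by nucleotide excision repair, in which the damage is recognised, the helix opened and a short stretch cut out. Ovarian cancers often carry defects in homologous recombination, and platinum drugs are part of their standard treatment.

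Libraries held 7693492 to 9304798 reads in peaks, so 1 read was worth 0.107 to 0.130 CPM, the authors' unit of reads in a peak scaled to a common library total. Of 16 ovarian carcinoma lineage genes, 12 had a gene-end peak, and their summed level was 80.7 to 85.9 CPM in control, 65.9 to 69.0 CPM in cisplatin-resistant, 57.3 to 58.4 CPM in paclitaxel-resistant and 70.0 to 73.0 CPM in dual-resistant libraries. MUC16, KRT19, ESR1 and CDH6 were the 4 with none, and PAX8, which marks most serous ovarian cancers, was weak at 0.49 to 4.28 CPM. Markers of other cell types also had peaks, and their summed level was 62.9 to 98.1 CPM for 8 of 9 fibroblast genes, 34.5 to 48.1 CPM for 6 of 7 blood cell genes and 3.27 to 14.7 CPM for 2 of 6 endothelial genes. Fibroblast markers summed to more in each resistant group (82.7 to 98.1 CPM) than in control (62.9 to 71.5 CPM). Single fibroblast genes went both ways. Their log2 differences from control were -0.78 to 2.23 in cisplatin-resistant (median 0.12), -1.65 to 4.03 in paclitaxel-resistant (median -0.15) and -0.19 to 1.83 in dual-resistant cells (median 0.47). The part of these marker differences in the results on repair genes was not tested. In a bulk library, fewer cells with an open site and a less open site in each cell cannot be told apart.

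The repair genes' gene-end peaks were stronger than most. The median over the 46 of the mean level was 34.5 CPM, against 20.1 CPM over all gene ends, and 40 of 46 lay above the latter. ATM, the kinase that signals double-strand breaks, had the highest peak, with a mean of 120 CPM, and SLFN11, a nuclease-like protein that blocks stressed replication forks, had the lowest, with a mean of 3.25 CPM. The peak covered the annotated start for 37 of the 44 genes with a start in the promoter table. It was also the gene-end peak of another gene for 17 of 46, so that its level cannot be assigned to one of the pair.

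**Figure D1:**
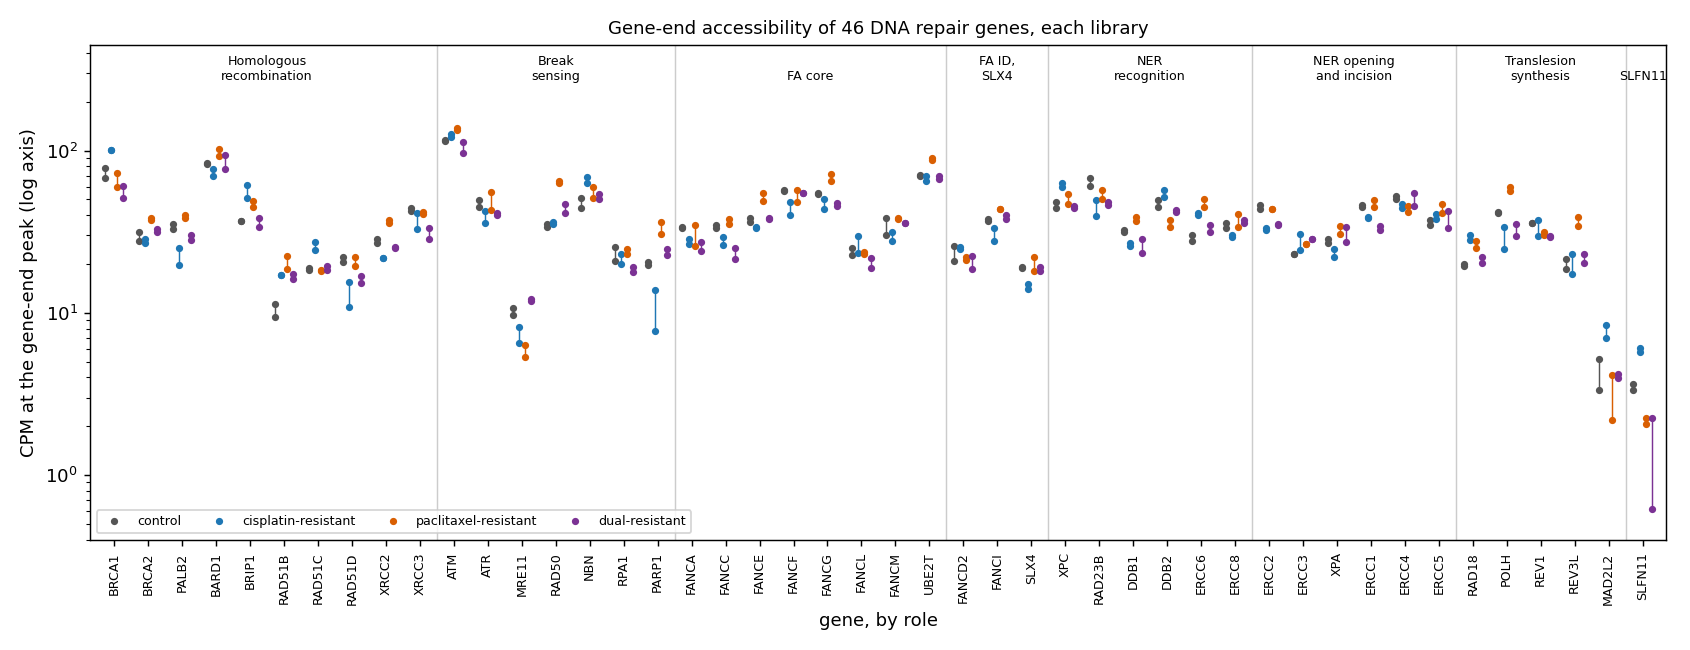
Level of the gene-end peak of each of the 46 repair genes in each of the 8 libraries, in CPM on a log axis, grouped by role (FA, Fanconi anaemia; NER, nucleotide excision repair). Most genes lie between 10 and 100 CPM in every library; MAD2L2 and SLFN11 are the weakest.

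Differences were tested with limma on log2(CPM + 0.5) over all 158698 peaks, with p-values adjusted by Benjamini-Hochberg and calls made under 0.05. Adjusted p-values in what follows are from this test and log2 differences are on this scale. The 3 comparisons with control share the 2 control libraries, so their values stand side by side and are not independent of each other. In cisplatin-resistant cells 18 of 46 genes were called (39.1%), 9 higher and 9 lower, while 39.7% of all gene ends were called, 11.1% higher and 28.6% lower. In paclitaxel-resistant cells 16 were called (34.8%), 14 higher and 2 lower, against 22.4% of all gene ends, 12.7% higher and 9.68% lower. In dual-resistant cells 11 were called (23.9%), 2 higher and 9 lower, against 19.7% of all gene ends, 4.86% higher and 14.8% lower. Median log2 differences over the 46, in the same order of lines, were -0.16, 0.14 and -0.05, beside -0.19, 0.01 and -0.13 over all gene ends.

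These counts depend on scaling and on single libraries. The split of 9 higher and 9 lower in cisplatin-resistant cells was 11 and 7 after quantile normalization, 13 and 5 after loess and 12 and 7 with median-ratio scaling. The split of 14 and 2 in paclitaxel-resistant cells was 7 and 5 after quantile normalization and after loess, and the split of 2 and 9 in dual-resistant cells was 5 and 4 and 4 and 3 under these. Leaving out 1 library at a time left 13 to 17, 5 to 11 and 4 to 7 calls in the 3 lines, and the calls that stayed in every such fit were 11 of 18, 4 of 16 and 1 of 11. Those kept under quantile, loess and median-ratio scaling alike were 13 of 18, 8 of 16 and 4 of 11. In cisplatin-resistant cells these were BRCA1, PALB2, BRIP1, RAD51B, RAD51C, RAD51D, NBN, PARP1, XPC, RAD23B, ERCC6, RAD18 and POLH. In paclitaxel-resistant cells they were RAD51B, MRE11, RAD50, PARP1, FANCE, ERCC6, POLH and REV3L, and in dual-resistant cells RAD51B, XRCC3, FANCC and SLFN11. All other calls ended under at least 1 of these scalings.

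Most differences were moderate. Of the 46, 32 were called in at least 1 comparison with control (69.6%, beside 58.3% of all gene ends), and SLFN11 was the 1 gene with a called difference of at least 2-fold (2.17%, beside 16.5% of all gene ends). Resistant and control libraries were fully apart at 37 of 46 genes for cisplatin-resistant cells (80.4%, beside 70.7% of gene ends), at 30 for paclitaxel-resistant (65.2%, beside 60.7%) and at 29 for dual-resistant (63.0%, beside 60.6%). The 14 genes called in no comparison with control were BARD1, ATR, RPA1, FANCL, FANCM, FANCD2, SLX4, DDB1, ERCC8, ERCC3, XPA, ERCC4, ERCC5 and REV1. Their mean levels were 18.1 to 85.0 CPM and their log2 differences from control were -0.37 to 0.30.

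**Figure D2:**
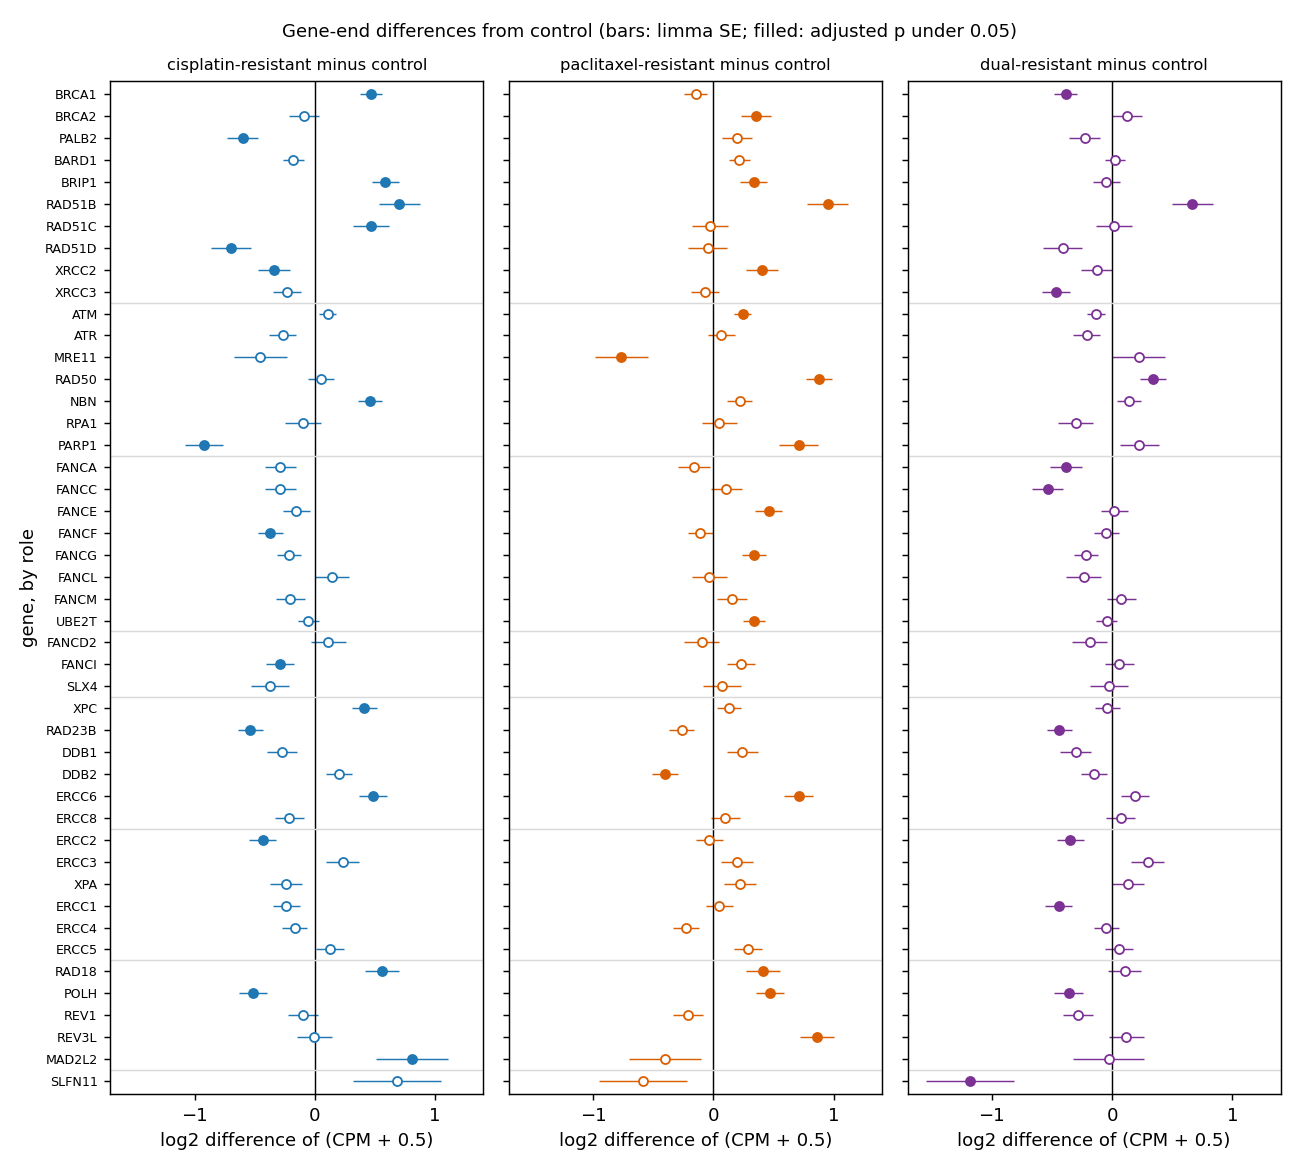
Log2 difference from control of the gene-end peak of each repair gene, with the limma standard error, for cisplatin-resistant, paclitaxel-resistant and dual-resistant cells; filled points were called. Calls lie on both sides of 0 in the first panel, mostly above it in the second (14 of 16) and mostly below it in the third (9 of 11).

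Among the 10 genes of homologous recombination, 4 rose and 3 fell in cisplatin-resistant cells, 4 rose in paclitaxel-resistant cells, and 1 rose and 2 fell in dual-resistant cells. Called in these lines were 7, 4 and 3 of the 10, beside 39.7%, 22.4% and 19.7% of all gene ends. BRCA1, the ubiquitin ligase that directs broken ends to recombination, was read from the peak at its outermost RefSeq end (chr17:43170106-43171106). That peak is also at the start of NBR1 and is not over the usual start of BRCA1. It measured 78.4 and 68.0 CPM in control, 101 and 101 CPM in cisplatin-resistant, 59.9 and 72.3 CPM in paclitaxel-resistant and 60.6 and 51.2 CPM in dual-resistant libraries. Both cisplatin-resistant libraries lay above control and both dual-resistant ones lay under it, whereas the paclitaxel-resistant libraries overlapped control. The peak rose in cisplatin-resistant cells (log2 difference 0.47 ± 0.09 SE, adjusted p = 2.04e-05) and fell in dual-resistant cells (-0.39 ± 0.09, adjusted p = 0.00106), with -0.15 in paclitaxel-resistant cells (adjusted p = 0.299). The dual-resistant call was lost without control library 1 (-0.29) and without dual-resistant library 2 (-0.27), as well as after quantile normalization (-0.23) and loess (-0.19). Under these 2 scalings BRCA1 was called lower in paclitaxel-resistant cells (-0.30 and -0.31). A further peak inside the span beside the start of NBR2 (chr17:43124854-43125854) measured 60.2 and 50.3 CPM in control, 70.7 and 55.5 CPM in cisplatin-resistant, 51.8 and 50.3 CPM in paclitaxel-resistant and 40.8 and 47.2 CPM in dual-resistant libraries. It was likewise called lower in dual-resistant cells (-0.32), while its cisplatin-resistant value of 0.19 was not called.

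BRCA2, which acts at resected DNA ends in homologous recombination, shares its start peak with ZAR1L. It gave 31.5 and 27.8 CPM in control, 27.1 and 28.5 CPM in cisplatin-resistant, 38.5 and 37.5 CPM in paclitaxel-resistant and 31.5 and 32.9 CPM in dual-resistant libraries. The paclitaxel-resistant libraries lay above all others and BRCA2 rose there (0.36 ± 0.12, adjusted p = 0.0341), while -0.09 in cisplatin-resistant and 0.12 in dual-resistant cells were not called. PALB2, the bridge between BRCA1 and BRCA2, shares its peak with DCTN5 and measured 32.8 and 35.4 CPM in control, 19.7 and 25.3 CPM in cisplatin-resistant, 38.2 and 39.9 CPM in paclitaxel-resistant and 28.1 and 30.0 CPM in dual-resistant libraries. It fell in cisplatin-resistant cells by 0.60 on the log2 scale (SE 0.13, adjusted p = 8.60e-05), where both libraries lay under every other library. BRIP1, a helicase that partners BRCA1, measured 37.0 and 37.1 CPM in control, 61.2 and 51.1 CPM in cisplatin-resistant, 48.9 and 44.8 CPM in paclitaxel-resistant and 33.6 and 38.2 CPM in dual-resistant libraries. It rose in the 2 singly resistant lines (0.59 and 0.33), and the dual-resistant libraries lay on either side of control. The BRCA2 call ended without control library 2 (0.27) or either paclitaxel-resistant library (0.34 and 0.37), and the paclitaxel-resistant call of BRIP1 ended without either control library (0.33 in each case) or paclitaxel-resistant library 1 (0.27). Both calls also ended after quantile normalization and loess (0.26 and 0.29 for BRCA2, 0.22 and 0.23 for BRIP1).

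RAD51B, RAD51C, RAD51D, XRCC2 and XRCC3, related proteins that assist strand exchange, moved in different directions. RAD51B was read from a peak centred at -3929 bp from its annotated start (chr14:67819112-67820112), with 11.3 and 9.40 CPM in control, 17.0 and 17.2 CPM in cisplatin-resistant, 18.6 and 22.4 CPM in paclitaxel-resistant and 16.1 and 17.3 CPM in dual-resistant libraries. All 6 resistant libraries lay above control, and the peak rose in each line (0.70 ± 0.17, 0.95 ± 0.17 and 0.67 ± 0.17; adjusted p = 4.91e-04, 4.32e-06 and 0.00238), or 1.98-fold in paclitaxel-resistant cells. RAD51D fell in cisplatin-resistant cells (-0.70 ± 0.16, adjusted p = 3.44e-04), with 22.2 and 20.6 CPM in control, 10.9 and 15.4 CPM in cisplatin-resistant, 22.1 and 19.3 CPM in paclitaxel-resistant and 15.2 and 16.8 CPM in dual-resistant libraries. The dual-resistant libraries were also under control but the difference was not called (-0.41, adjusted p = 0.0844), and the cisplatin-resistant call was lost without cisplatin-resistant library 1 (-0.46). XRCC3, which shares its peak with ZFYVE21, measured 44.1 and 42.2 CPM in control, 32.9 and 41.0 CPM in cisplatin-resistant, 41.6 and 40.6 CPM in paclitaxel-resistant and 28.7 and 33.5 CPM in dual-resistant libraries. It fell in dual-resistant cells (-0.47 ± 0.12, adjusted p = 0.00215), a call lost without dual-resistant library 1 (-0.36). RAD51C, at a peak shared with TEX14, rose in cisplatin-resistant cells (0.47), and XRCC2 fell there (-0.34) and rose in paclitaxel-resistant cells (0.40). The dual-resistant call of RAD51B ended without control library 2 (0.54), that of RAD51C without control library 1 (0.45) or cisplatin-resistant library 1 (0.39), and both XRCC2 calls without any 1 of the 4 libraries compared.

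Of the 7 genes that sense and signal breaks, NBN rose and PARP1 fell in cisplatin-resistant cells, RAD50, PARP1 and ATM rose and MRE11 fell in paclitaxel-resistant cells, and RAD50 rose in dual-resistant cells. That was 28.6%, 57.1% and 14.3% called, beside 39.7%, 22.4% and 19.7% of all gene ends. PARP1, the polymerase that marks nicks with poly(ADP-ribose) and the target of drugs given in ovarian cancer, differed most between lines among these 7. Its start peak (chr1:226407848-226408848) measured 20.5 and 19.8 CPM in control, 7.77 and 13.9 CPM in cisplatin-resistant, 30.5 and 36.4 CPM in paclitaxel-resistant and 22.8 and 24.6 CPM in dual-resistant libraries. The cisplatin-resistant libraries were lowest and the paclitaxel-resistant ones highest, with no overlap with control in either. It fell in cisplatin-resistant cells by 0.92 on the log2 scale (SE 0.16, adjusted p = 1.68e-06) and rose in paclitaxel-resistant cells by 0.71 (adjusted p = 4.06e-04), the latter lost without paclitaxel-resistant library 2 (0.58). The surrounding 5 Mb shifted by -0.61 in cisplatin-resistant cells (a difference between group averages of library medians, set out below). With this shift subtracted, PARP1 was at -0.32 and not called. Within the gene, peaks starting at chr1:226403321 and chr1:226405005 were also called lower in cisplatin-resistant cells (-0.89 and -1.18).

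RAD50, MRE11 and NBN form the complex that binds and trims broken ends. RAD50 shares its start peak (chr5:132556547-132557547) with the gene end of IL5 and measured 33.8 and 35.3 CPM in control, 35.2 and 36.5 CPM in cisplatin-resistant, 64.8 and 63.0 CPM in paclitaxel-resistant and 41.3 and 46.6 CPM in dual-resistant libraries. The paclitaxel-resistant libraries lay well above all others, 1.85-fold over control (0.88 ± 0.11, adjusted p = 8.52e-11), and the dual-resistant ones were between (0.34 ± 0.11, adjusted p = 0.0220). MRE11 was read from a weak peak at the outermost RefSeq end, upstream of its annotated start and shared with C11orf97, with 9.75 and 10.7 CPM in control, 6.53 and 8.18 CPM in cisplatin-resistant, 5.34 and 6.29 CPM in paclitaxel-resistant and 12.1 and 11.8 CPM in dual-resistant libraries. That peak fell in paclitaxel-resistant cells (-0.77 ± 0.22, adjusted p = 0.00743; the call was lost in edgeR and DESeq2 and without control library 2, at -0.70, or paclitaxel-resistant library 1, at -0.66). The stronger peak over the annotated start of MRE11 (mean 48.9 CPM, shared with ANKRD49) was not called in any line, with log2 differences of -0.01, 0.13 and -0.18. NBN rose in cisplatin-resistant cells (0.46 ± 0.10, adjusted p = 1.22e-04), with 62.8 and 68.3 CPM there and 51.0 and 44.1 CPM in control. ATM, at the start it shares with NPAT, rose in paclitaxel-resistant cells (0.24), a call that ended without any 1 of the 4 libraries compared and after quantile normalization (0.08) and loess (0.02). The dual-resistant call of RAD50 ended without either control library (0.31 and 0.37) or dual-resistant library 2 (0.26).

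Promoters are printed for the 2 largest rises and the 2 largest falls among called genes whose peak lies over the annotated promoter, of which PARP1 and RAD50 are 1 each. They are the 250 bases before the annotated start, all under the gene-end peak (RefSeq, GRCh38.p14). Capitals mark matches on either strand to the motifs searched, here GGGCGG, the GC box bound by Sp factors, and CCGGAA, the core bound by ETS factors.
PARP1 promoter, chr1:226408094-226408343, minus strand: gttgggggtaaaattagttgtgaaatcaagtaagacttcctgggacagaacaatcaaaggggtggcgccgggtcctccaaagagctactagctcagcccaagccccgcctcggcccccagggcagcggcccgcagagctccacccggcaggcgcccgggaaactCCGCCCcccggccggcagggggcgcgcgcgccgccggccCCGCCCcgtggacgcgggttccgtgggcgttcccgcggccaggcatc
RAD50 promoter, chr5:132556727-132556976, plus strand: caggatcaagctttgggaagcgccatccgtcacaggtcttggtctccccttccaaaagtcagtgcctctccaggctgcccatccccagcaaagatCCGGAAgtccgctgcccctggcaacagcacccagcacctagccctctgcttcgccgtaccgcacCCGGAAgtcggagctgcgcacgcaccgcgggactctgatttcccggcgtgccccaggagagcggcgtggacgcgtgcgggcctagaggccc

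In the Fanconi anaemia core complex and its partner ubiquitin-conjugating enzyme, 1 of 8 genes fell in cisplatin-resistant cells, 3 rose in paclitaxel-resistant cells and 2 fell in dual-resistant cells. These are 12.5%, 37.5% and 25.0%, beside 39.7%, 22.4% and 19.7% of all gene ends called. FANCC, a core subunit, measured 33.1 and 34.9 CPM in control, 26.3 and 29.2 CPM in cisplatin-resistant, 38.1 and 35.2 CPM in paclitaxel-resistant and 21.5 and 25.3 CPM in dual-resistant libraries. The dual-resistant libraries were the lowest (-0.54 ± 0.13, adjusted p = 0.00117; lost without dual-resistant library 1, at -0.42). FANCA, the largest core subunit, gave 33.5 and 33.7 CPM in control, 28.5 and 26.5 CPM in cisplatin-resistant, 34.8 and 25.7 CPM in paclitaxel-resistant and 24.0 and 27.5 CPM in dual-resistant libraries, and also fell in dual-resistant cells (-0.38 ± 0.13, adjusted p = 0.0388). FANCE was read from the peak at its far end, beside RPL10A, with 36.5 and 38.6 CPM in control, 34.0 and 33.4 CPM in cisplatin-resistant, 54.6 and 49.2 CPM in paclitaxel-resistant and 38.5 and 37.6 CPM in dual-resistant libraries (0.46 ± 0.11 in paclitaxel-resistant cells, adjusted p = 0.00120; lost without paclitaxel-resistant library 1, at 0.39). At the start of FANCE itself the rise was larger, from 28.1 and 26.8 CPM to 47.8 and 49.8 CPM (0.82, adjusted p = 1.88e-07). FANCG, read from a peak shared with VCP at its far end, and UBE2T, the enzyme that hands ubiquitin to the FANCI-FANCD2 pair, both rose in paclitaxel-resistant cells (0.34 and 0.34), and FANCF, at a peak shared with GAS2, fell in cisplatin-resistant cells (-0.37). Of the FANCI-FANCD2 pair and the nuclease scaffold SLX4, FANCI was the one called, lower in cisplatin-resistant cells (-0.29). That was 33.3% of this group, beside 39.7% of all gene ends called. Without paclitaxel-resistant library 1 the calls of FANCG (0.27) and UBE2T (0.31) ended, and without cisplatin-resistant library 2 those of FANCF (-0.24) and FANCI (-0.16). The calls of FANCA, FANCG and FANCI also ended without either control library, and that of FANCA without dual-resistant library 1 (-0.28). After quantile normalization and loess, FANCG (0.19 and 0.21), UBE2T (0.16 and 0.17) and FANCI (-0.14 and -0.12) were not called.

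Of the 6 genes that recognise damage in nucleotide excision repair, 2 rose and 1 fell in cisplatin-resistant cells, 1 rose and 1 fell in paclitaxel-resistant cells and 1 fell in dual-resistant cells. Called in these lines were 3, 2 and 1 of the 6, beside 39.7%, 22.4% and 19.7% of all gene ends. XPC, the sensor of distorted DNA, shares its start peak with LSM3 and measured 44.2 and 48.0 CPM in control, 60.0 and 62.8 CPM in cisplatin-resistant, 53.8 and 47.2 CPM in paclitaxel-resistant and 44.3 and 45.2 CPM in dual-resistant libraries. The cisplatin-resistant libraries stood above all others, and XPC rose there (0.41 ± 0.10, adjusted p = 8.28e-04), with 0.13 and -0.04 in the other two lines. Its partner RAD23B moved the other way, with 68.1 and 60.9 CPM in control, 39.4 and 49.7 CPM in cisplatin-resistant, 50.1 and 57.1 CPM in paclitaxel-resistant and 46.4 and 48.5 CPM in dual-resistant libraries. All 6 resistant libraries were under control, and RAD23B fell in cisplatin-resistant (-0.54 ± 0.10, adjusted p = 1.60e-05) and dual-resistant cells (-0.44 ± 0.10, adjusted p = 0.00110; lost without control library 1, at -0.36). ERCC6, the remodeller that recognises stalled RNA polymerase, measured 30.2 and 27.7 CPM in control, 40.3 and 41.0 CPM in cisplatin-resistant, 50 and 45.1 CPM in paclitaxel-resistant and 34.7 and 31.4 CPM in dual-resistant libraries. It rose in both singly resistant lines (0.49 ± 0.12 and 0.71 ± 0.12, adjusted p = 4.84e-04 and 7.20e-07), while the dual-resistant libraries, although above control, were not called. DDB2, the sensor of ultraviolet lesions, fell in paclitaxel-resistant cells (-0.41), a call lost without control library 2 (-0.33) or paclitaxel-resistant library 1 (-0.34), with median-ratio scaling (-0.24), with regional medians subtracted (-0.25), in edgeR (-0.25) and in DESeq2 (-0.24).

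Among the 6 genes for opening, verification and incision, ERCC1 and ERCC2 were the ones called. That was 16.7%, 0% and 33.3% in cisplatin-resistant, paclitaxel-resistant and dual-resistant cells, beside 39.7%, 22.4% and 19.7% of all gene ends. ERCC1, the partner of the ERCC4 nuclease and a much studied marker of platinum response, was read from a peak at the far end of its span (chr19:45405955-45406955) with 45.2 and 46.1 CPM in control, 38.7 and 38.6 CPM in cisplatin-resistant, 49.5 and 45.0 CPM in paclitaxel-resistant and 34.5 and 32.3 CPM in dual-resistant libraries. The dual-resistant libraries were lowest (-0.44 ± 0.11, adjusted p = 0.00208), a call that stayed whichever library was left out but ended after quantile normalization (-0.31), loess (-0.30) and subtraction of regional medians (-0.31). The cisplatin-resistant libraries also lay under control, but the difference was not called (-0.24, adjusted p = 0.0918), and paclitaxel-resistant cells gave 0.05. A weaker peak (chr19:45450098-45451098) was centred 949 bp inside the annotated start of ERCC1 and did not cover that start. This peak measured 39.6 and 30.8 CPM in control, 27.8 and 31.2 CPM in cisplatin-resistant, 25.0 and 25.0 CPM in paclitaxel-resistant and 21.1 and 28.2 CPM in dual-resistant libraries. Unlike the far-end peak it fell in paclitaxel-resistant cells (-0.48, adjusted p = 0.00687), and it also fell in dual-resistant cells (-0.51). The strongest peak inside the ERCC1 span (chr19:45423316-45424316) was also lowest in dual-resistant cells, with 61.7 and 60.9 CPM in control, 50.1 and 51.4 CPM in cisplatin-resistant, 55.8 and 55.1 CPM in paclitaxel-resistant and 44.0 and 41.5 CPM in dual-resistant libraries, and fell in cisplatin-resistant (-0.27) and dual-resistant cells (-0.52). ERCC2, a helicase of the TFIIH complex, fell in cisplatin-resistant (-0.43) and dual-resistant cells (-0.35), the latter a call that ended without any 1 of the 4 libraries compared.

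In translesion synthesis, POLH and RAD18 were called in 3 and 2 of the comparisons with control and REV3L and MAD2L2 in 1, while REV1 was in none. Called shares of these 5 were 60.0%, 60.0% and 20.0% in cisplatin-resistant, paclitaxel-resistant and dual-resistant cells, beside 39.7%, 22.4% and 19.7% of all gene ends. POLH, the polymerase that copies past cisplatin adducts, shares its start peak with XPO5 and measured 41.3 and 42.1 CPM in control, 24.9 and 33.9 CPM in cisplatin-resistant, 59.4 and 56.6 CPM in paclitaxel-resistant and 35.1 and 29.8 CPM in dual-resistant libraries. It fell in cisplatin-resistant (-0.51 ± 0.12, adjusted p = 2.64e-04) and dual-resistant cells (-0.36 ± 0.12, adjusted p = 0.0263) and rose in paclitaxel-resistant cells (0.47 ± 0.12, adjusted p = 0.00173), with no overlap with control in any. The cisplatin-resistant call was lost without cisplatin-resistant library 1 (-0.29) and the paclitaxel-resistant one without paclitaxel-resistant library 1 (0.44), and the dual-resistant one without either control library (-0.38 and -0.35) or dual-resistant library 2 (-0.25). REV3L, the catalytic subunit of polymerase zeta, stood high in paclitaxel-resistant cells alone, with 39.1 and 34.5 CPM there, 21.4 and 18.7 CPM in control, 17.3 and 22.9 CPM in cisplatin-resistant and 20.4 and 23.2 CPM in dual-resistant libraries. That was a 1.83-fold rise (0.86 ± 0.14, adjusted p = 9.64e-07). RAD18, the ligase that calls translesion polymerases to a stalled fork, measured 19.9 and 19.3 CPM in control, 30.2 and 28.2 CPM in cisplatin-resistant, 25.0 and 27.5 CPM in paclitaxel-resistant and 22.0 and 20.2 CPM in dual-resistant libraries, and rose in the 2 singly resistant lines (0.56 and 0.41, the second call ending without any 1 of the 4 libraries compared). MAD2L2, the linker between REV3L and REV1, had a weak gene-end peak centred at -1511 bp from its start, with 5.20 and 3.35 CPM in control, 8.44 and 7.02 CPM in cisplatin-resistant, 2.19 and 4.16 CPM in paclitaxel-resistant and 4.20 and 3.98 CPM in dual-resistant libraries. Its cisplatin-resistant call (0.81 ± 0.30, adjusted p = 0.0267) was lost without control library 2 (0.52) and without either cisplatin-resistant library (0.68 and 0.93), as well as in DESeq2. The peak over its annotated start lay on the other side of control in the same line, with 5.46 and 5.41 CPM in control and 2.25 and 3.62 CPM in cisplatin-resistant libraries (-0.82, adjusted p = 0.0511, not called).

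SLFN11, whose loss of expression is known to accompany resistance to DNA-damaging drugs in cancer cell lines, had 3.64 and 3.35 CPM in control, 6.08 and 5.73 CPM in cisplatin-resistant, 2.06 and 2.25 CPM in paclitaxel-resistant and 0.62 and 2.26 CPM in dual-resistant libraries. These rest on 28 and 26, 54 and 49, 17 and 20, and 5 and 21 reads. The cisplatin-resistant libraries were the highest and the dual-resistant ones ranged from the lowest of all to the upper paclitaxel-resistant level. It fell in dual-resistant cells to 0.41 of control (-1.18 ± 0.37, adjusted p = 0.0168), a difference of -0.53 without dual-resistant library 1, where the call ended; it also ended without either control library (-1.13 and -1.24) and in DESeq2 (-1.33). The other differences, 0.68 in cisplatin-resistant (adjusted p = 0.147) and -0.59 in paclitaxel-resistant cells (adjusted p = 0.301), were not called.

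**Figure D3:**
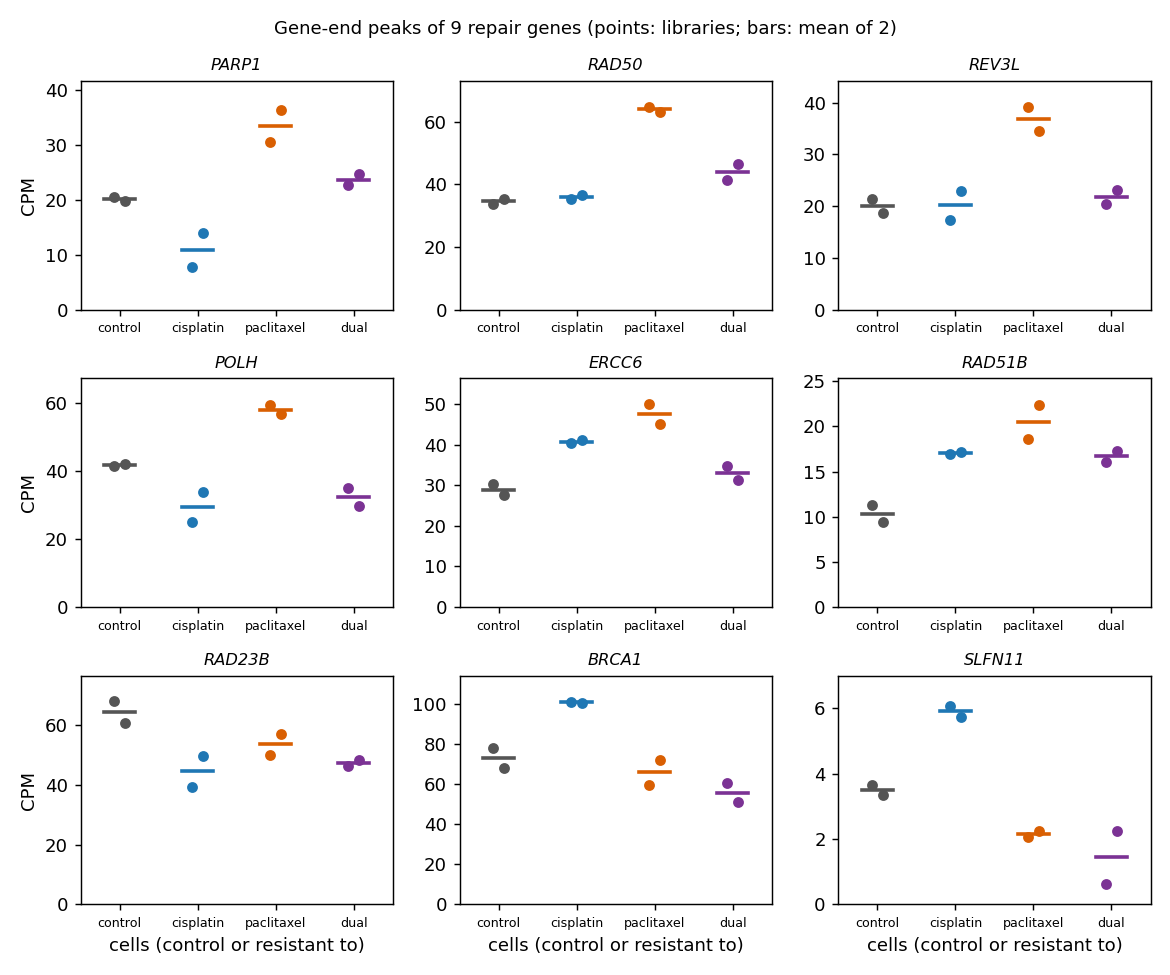
Gene-end peak level in CPM in each library (points) and the mean of the 2 libraries of each group (bars) for PARP1, RAD50, REV3L, POLH, ERCC6, RAD51B, RAD23B, BRCA1 and SLFN11. PARP1 and POLH are low in cisplatin-resistant and high in paclitaxel-resistant libraries, REV3L is high in paclitaxel-resistant ones, and SLFN11 lies near 1 to 6 CPM throughout.

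REV3L and SLFN11 are the other rise and the other fall whose promoters are printed, again as the 250 bases before the annotated start, all under the gene-end peak (RefSeq, GRCh38.p14). Capitals mark the same motifs and also CCAAT, the box bound by NF-Y, which directly adjoins the GC box in SLFN11 without sharing a base.
REV3L promoter, chr6:111483712-111483961, minus strand: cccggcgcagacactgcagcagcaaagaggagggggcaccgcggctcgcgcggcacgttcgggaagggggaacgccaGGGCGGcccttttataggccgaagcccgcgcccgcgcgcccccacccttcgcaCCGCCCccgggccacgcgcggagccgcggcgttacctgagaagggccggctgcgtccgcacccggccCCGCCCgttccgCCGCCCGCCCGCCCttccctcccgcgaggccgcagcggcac
SLFN11 promoter, chr17:35373622-35373871, minus strand: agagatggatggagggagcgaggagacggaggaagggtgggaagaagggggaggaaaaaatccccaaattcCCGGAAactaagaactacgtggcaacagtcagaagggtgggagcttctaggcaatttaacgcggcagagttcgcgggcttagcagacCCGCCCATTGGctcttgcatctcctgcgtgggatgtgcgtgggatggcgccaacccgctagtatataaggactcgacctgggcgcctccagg

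The 300 bases from 250 before to 50 after the start were searched in the 44 repair genes with a promoter entry. GGGCGG was found in 75.0% of them (58.5% of 15813 protein-coding promoters and 44.6% of all 27305), CCGGAA in 40.9% (22.8% and 17.6%) and the NRF1 motif in 27.3% (8.59% and 6.28%). CCAAT was in 34.1% (36.3% and 35.7%), TGACGTCA, bound by CREB factors, in 4.55% (2.59% and 1.98%), TTTNGCGC, bound by E2F factors, in 2.27% (2.44% and 1.83%), and TTTGAA, an element of cell cycle promoters, in 9.09% (12.1% and 15.4%). AAGATGGCG, bound by YY1, and TGANTCA, bound by AP-1, had no match in the 44 windows (in 2.74% and 5.75% of protein-coding promoters). The REV3L window held 7 GGGCGG matches, more than the 2 of PARP1 and the 1 each of RAD50 and SLFN11, and matches may overlap. Median GC content was 64.3% in the repair promoters and 62.7% in protein-coding promoters. A match is a description of letters, and no binding was measured.

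When the resistant lines were set against each other, paclitaxel-resistant and cisplatin-resistant cells differed at most of the repair genes. Paclitaxel-resistant cells were higher at 24 genes and lower at 7 (67.4% called, beside 47.6% of all gene ends, 34.5% higher and 13.1% lower), with PARP1 at 1.63 and POLH at 0.99. Dual-resistant against paclitaxel-resistant cells gave 1 higher and 18 lower (41.3%, beside 31.9% of gene ends, 7.58% higher and 24.3% lower), POLH among the lower ones at -0.83. Dual-resistant against cisplatin-resistant cells gave 8 higher and 12 lower (43.5%, beside 36.5%, 19.6% higher and 16.9% lower), with BRCA1 at -0.85 and SLFN11 at -1.87. The split was 1 and 18 in the last comparison with median-ratio scaling and in edgeR, and 4 and 3 and 4 and 5 in dual-resistant against paclitaxel-resistant cells after quantile normalization and loess. The paclitaxel-resistant against cisplatin-resistant split became 9 and 13 after either of these.

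Part of these differences lay in stretches of chromosome whose peaks moved the same way. CPM is not corrected for DNA copy number, which was not measured here, so a more open site and more copies of it cannot be told apart. In each library, the median deviation of a 5 Mb bin's tested peaks from their all-library means was taken. Bins held 43 to 1057 peaks. A bin's median, as given here, is the log2 difference between the group averages of these library medians. In cisplatin-resistant cells 8 of the 9 genes called higher lay in bins with a median above 0, and 8 of the 9 called lower lay in bins with a median under 0. RAD23B was the exception among the lower ones, with -0.54 in a bin at 0.40, and MAD2L2 among the higher ones, with 0.81 in a bin at -0.39. In paclitaxel-resistant cells 5 of the 14 genes called higher lay in bins above 0 and 9 in bins under 0, and in dual-resistant cells 3 of the 9 called lower were in bins above 0. With the bin's median subtracted, 5 of 18 calls in cisplatin-resistant cells were kept (RAD51D, NBN, RAD23B, POLH and MAD2L2), 10 of 16 in paclitaxel-resistant and 6 of 11 in dual-resistant cells.

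Named genes show the range of this. The cisplatin-resistant values of BRCA1 (0.47), BRIP1 (0.59), XPC (0.41) and RAD18 (0.56) lay beside bin medians of 0.40, 0.54, 0.44 and 0.49 and were 0.07, 0.05, -0.03 and 0.07 after subtraction. REV3L in paclitaxel-resistant cells went from 0.86 to 0.15 and POLH from 0.47 to -0.05. By contrast, RAD50 in paclitaxel-resistant cells went from 0.88 to 1.03, ERCC6 from 0.71 to 1.0, PARP1 from 0.71 to 0.86 and RAD51B from 0.95 to 0.85. In cisplatin-resistant cells the same subtraction took PARP1 from -0.92 to -0.32 and ERCC6 from 0.49 to -0.18, and neither stayed called. RAD51B went from 0.70 to 0.14 in cisplatin-resistant and from 0.67 to 0.26 in dual-resistant cells, and both calls were lost. FANCC in dual-resistant cells went from -0.54 to -0.71. Splits after subtraction were 3 higher and 7 lower in cisplatin-resistant, 15 higher in paclitaxel-resistant and 10 lower in dual-resistant cells. Of all gene ends, 29.1%, 29.0% and 25.0% were then called in these lines. Their median log2 differences were -0.11, 0.17 and -0.19, so gene ends in general also leaned to these sides.

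**Figure D4:**
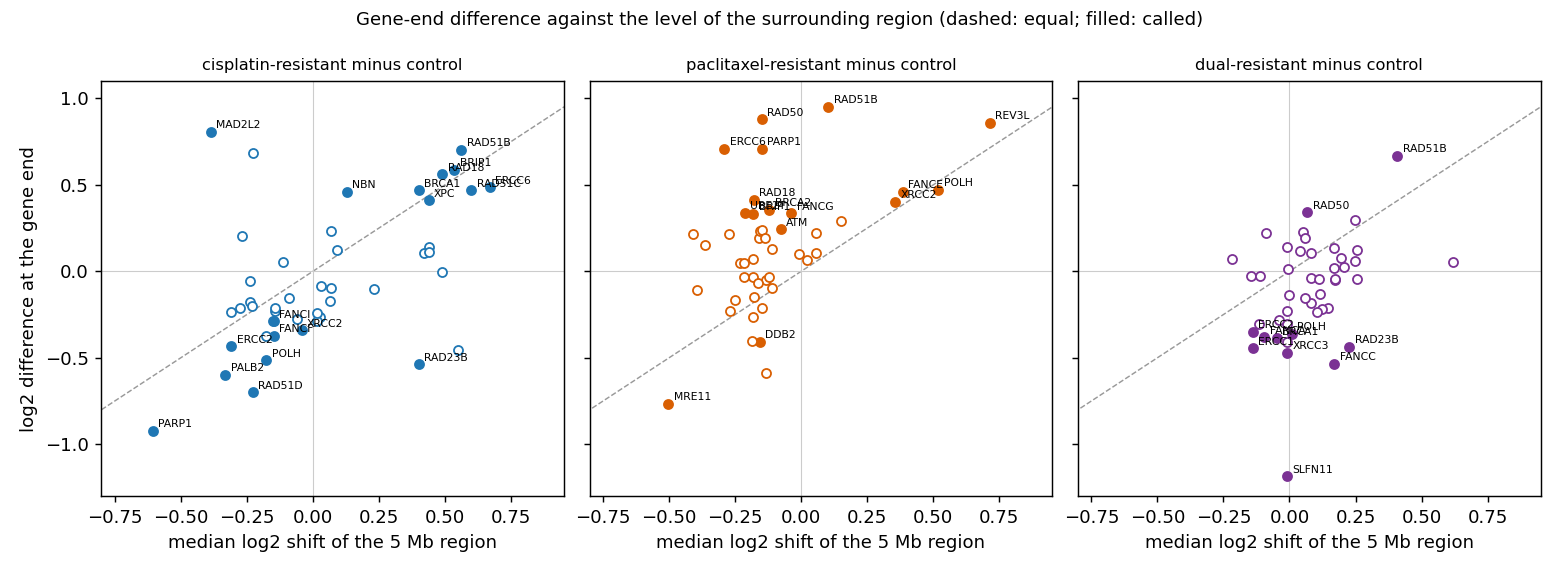
Log2 difference from control of each repair gene's gene-end peak (vertical axis) against that of its 5 Mb bin (horizontal axis), 1 panel per resistant line. Bin values are differences between group averages of the library medians over tested peaks. The dashed line marks equal values. In cisplatin-resistant cells most called genes lie near the dashed line, while RAD23B lies far under it; RAD50 and ERCC6 lie far above it in paclitaxel-resistant cells.

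Within the spans, 58 peaks were higher and 32 lower of 290 in cisplatin-resistant cells (31.0%, beside 31.9% of all peaks over protein-coding genes, 17.2% higher and 14.7% lower). There were 33 and 16 in paclitaxel-resistant cells (16.9%, beside 15.3%, 6.81% higher and 8.50% lower) and 21 and 22 in dual-resistant cells (14.8%, beside 12.2%, 6.66% higher and 5.51% lower). With median-ratio scaling the splits were 66 and 21, 52 and 12, and 13 and 27. Single peaks inside genes reached larger differences than any of the 46 gene ends. RAD51B, with 863 kb the longest span, held 50 of the 290, of which 22 were higher and 9 lower in cisplatin-resistant cells (62.0%). A peak 725 kb inside RAD51B (chr14:68547658-68548658) had 0.65 and 0.77 CPM in control, 16.2 and 18.4 CPM in cisplatin-resistant, 1.09 and 0.79 CPM in paclitaxel-resistant and 1.61 and 2.47 CPM in dual-resistant libraries (3.88 in cisplatin-resistant and 1.05 in dual-resistant cells, both called). Another at 653 kb rose by 3.59 on the log2 scale, from 0.13 and 0.26 CPM to 7.20 and 8.54 CPM. In the other direction, a peak 34.6 kb inside (chr14:67857593-67858593) fell from 11.3 and 14.3 CPM to 1.35 and 0.94 CPM in cisplatin-resistant, 0.97 and 0.90 CPM in paclitaxel-resistant and 5.19 and 4.94 CPM in dual-resistant libraries (-3.02, -3.20 and -1.25). Further falls in cisplatin-resistant cells were at 63.0 kb (-2.05, with -1.17 in paclitaxel-resistant cells) and at 368 kb (-1.52).

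Rises and falls over RAD51B in cisplatin-resistant cells lay in different stretches of the gene. Of 26 peaks up to 368 kb from the annotated start, where the last fall lay, 4 were called higher and 9 lower, and of the 24 beyond it 18 were called higher. The boundary was placed after the values were seen, so no test was made. Over the same 24 peaks the median log2 difference was 2.14 in this line, 0.15 in the paclitaxel-resistant line and 0.57 in the dual-resistant line, and the bin medians around the gene-end peak were 0.56, 0.10 and 0.41.

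**Figure D5:**
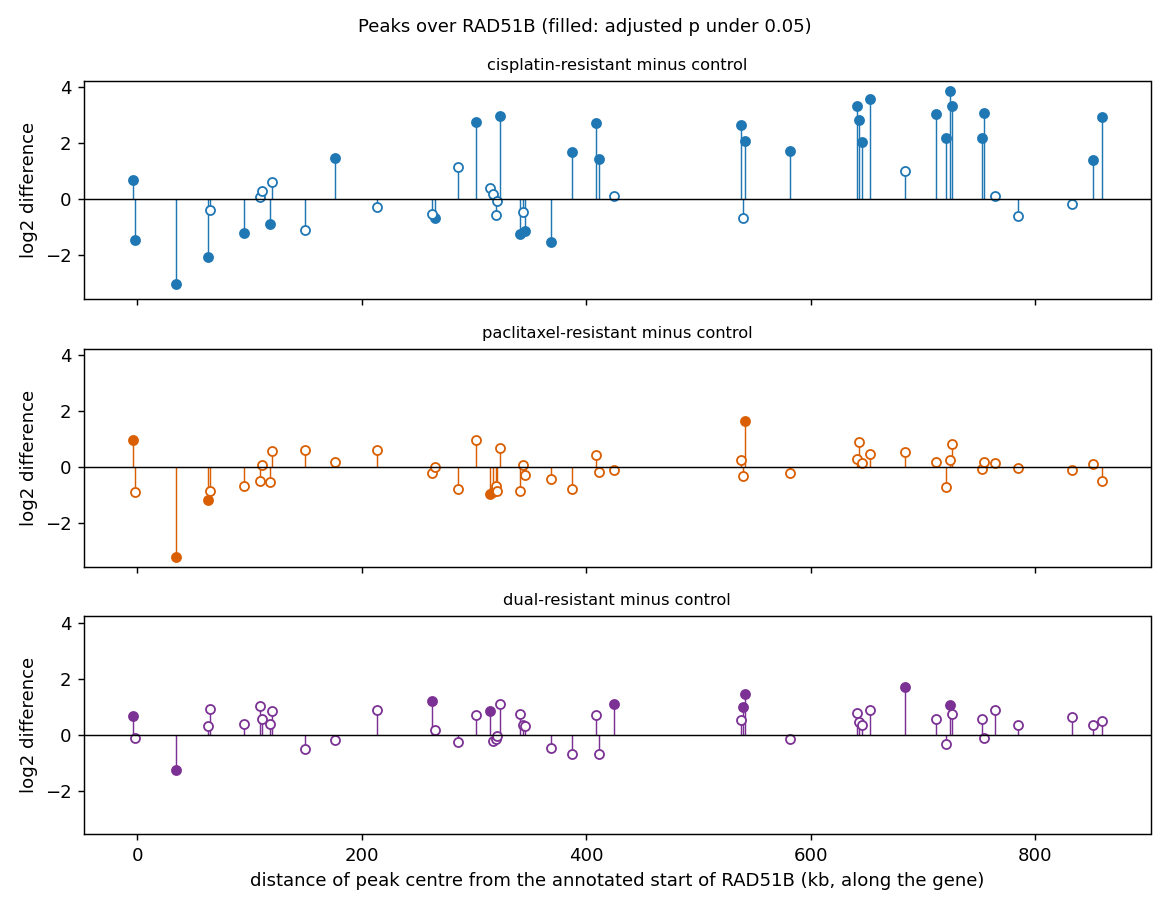
Log2 difference from control of each tested peak over RAD51B by its distance in kb from the annotated start, 1 panel per resistant line. In cisplatin-resistant cells the peaks in the far stretch of the gene lie mostly between 1 and 4, and the falls lie within 368 kb of the start; the other 2 lines stay nearer 0 in the far stretch.

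Single peaks in other genes differed strongly as well. FANCC had a peak 4.52 kb inside its start (chr9:95312688-95313688) with 1.95 and 1.67 CPM in control, 13.1 and 10.4 CPM in cisplatin-resistant, 27.1 and 27.0 CPM in paclitaxel-resistant and 1.61 and 1.5 CPM in dual-resistant libraries. It rose in both singly resistant lines (2.40 and 3.58) and was at -0.17 in dual-resistant cells, while the gene-end peak moved far less. Other FANCC peaks rose in paclitaxel-resistant cells at 10.6 kb (2.17) and at 180 kb (2.05, also over AOPEP) and in dual-resistant cells at 202 kb (1.30), and 8 of the gene's 22 peaks were higher in paclitaxel-resistant cells (36.4%). RAD18 had a peak 76.7 kb inside (chr3:8886244-8887244) that went from 0 and 0.52 CPM in control to 6.87 and 6.78 CPM in cisplatin-resistant libraries (3.36). XPC had a peak near its far end, also over TMEM43 (chr3:14144003-14145003), with 2.73 and 1.03 CPM in control, 24.0 and 19.4 CPM in cisplatin-resistant, 5.46 and 3.37 CPM in paclitaxel-resistant and 5.07 and 4.41 CPM in dual-resistant libraries. It rose in all 3 lines (3.31, 1.11 and 1.23), and the adjoining peak that starts at chr3:14145179 rose in cisplatin-resistant (1.87) and dual-resistant cells (1.23).

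On the falling side, ERCC2 had a peak 1.60 kb inside its start (chr19:45368472-45369472) with 9.36 and 11.7 CPM in control, 6.08 and 5.03 CPM in cisplatin-resistant, 3.40 and 3.82 CPM in paclitaxel-resistant and 3.96 and 3.12 CPM in dual-resistant libraries. All 6 resistant libraries were under control, and the peak was called lower in cisplatin-resistant (-0.86), paclitaxel-resistant (-1.42) and dual-resistant cells (-1.45). ERCC1 had the most one-sided set, with 4, 7 and 6 of its 14 peaks lower in cisplatin-resistant, paclitaxel-resistant and dual-resistant cells (28.6%, 50% and 42.9%), among them a peak 1.14 kb before its start at -1.41 in paclitaxel-resistant cells. ERCC1 in the last 2 lines and RAD51B in cisplatin-resistant cells were the cases with at least 10 peaks and at least 40% called. MAD2L2 had a fall at its start in dual-resistant cells (-1.13; chr1:11690803-11691803, also over DRAXIN), where its gene-end peak was not called.

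Other genes of these pathways were read in the same way. Of 80 further genes in homologous recombination, the Fanconi pathway, excision repair, translesion synthesis and checkpoint signalling, 78 had a gene-end peak, of which 7 rose and 19 fell in cisplatin-resistant cells (33.3% called, beside 39.7% of all gene ends). In paclitaxel-resistant cells 13 rose and 2 fell (19.2%, beside 22.4%), and in dual-resistant cells 2 rose and 10 fell (15.4%, beside 19.7%). Their medians were -0.11, 0.08 and -0.15. SHPRH, a ligase of the bypass pathway, rose in paclitaxel-resistant cells from 24.4 and 26.0 CPM to 60.0 and 59.1 CPM (1.22, adjusted p = 1.12e-14), in a bin at 0.79. GTF2H5, the smallest TFIIH subunit, which shares its peak with SERAC1, rose there from 13.7 and 15.3 CPM to 30.6 and 31.8 CPM (1.08), in a bin at 0.80. UVSSA, which stabilises ERCC6 at stalled polymerases and shares its peak with MAEA, rose in cisplatin-resistant cells from 2.08 and 1.93 CPM to 5.96 and 4.56 CPM (1.19, adjusted p = 0.0205).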

How the data were processed

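ATAC-seq was measured in 8 libraries, 2 in each of 4 groups taken from the labels. The authors deposited one matrix of CPM values (reads in a peak scaled to a common library total) over 159451 peaks for all libraries, and each of its columns was matched to a library by the labels (0 left over). Bowtie2, Picard, MACS2 and hg38 are named in the submitters' processing notes; their versions, settings and any transposase offset are not stated in the sources used. Every deposited CPM value was a whole number of reads within 0.01 read (100%), so depth was recovered as 7693492 to 9304798 reads per library. A floor of 3 reads is 0.322 to 0.390 CPM.

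The 158698 peaks that reached 1 CPM in 2 or more libraries entered limma 3.58.1 (R 4.3.3; lmFit, eBayes with trend) on log2(CPM + 0.5), all 4 groups in one fit with no block. It had 4 residual and 98.5 prior degrees of freedom, so standard errors are nearly set by the spread common to peaks of like level. Benjamini-Hochberg adjustment ran over all tested peaks and calls were made at an adjusted p under 0.05. An exact permutation test of 2 against 2 libraries cannot go under 0.333 and was not used. Gene spans came from RefSeq. The 46 genes, the other lists and the tests were chosen with earlier results of these data known.

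Genes called in a comparison with control are all named, with values per library for up to 8 with the largest difference (at least 3 CPM in the higher group) and for BRCA1, BRCA2, ERCC1, XPC and SLFN11. Over the spans, up to 3 peaks per direction and comparison are named, and others named beside them (the second peaks of BRCA1, PARP1, MRE11, FANCE and ERCC1, and the RAD51B stretch) were chosen after their values were seen.

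Same-numbered libraries did not deviate together (correlations -0.000587 to 0.00332). These values cannot show whether such libraries were prepared together, which is not stated in the sources used. Alternatives were other pseudocounts, filters, scalings, windows and groups, a replicate block, subtraction of 5 Mb medians, each library left out, and edgeR 4.0.16 and DESeq2 1.42.0 on the recovered reads, where edgeR called 5370, 5012 and 4717 and DESeq2 3738, 3882 and 2802 of the 15952 gene ends in cisplatin-resistant, paclitaxel-resistant and dual-resistant cells against control (limma 6330, 3576 and 3135). limma was tested on simulated data for cisplatin-resistant against control over 158698 peaks: it recovered 4% of peaks changed 1.5-fold, 60% at 2-fold, 100% at 3-fold and 46% at 0.5-fold, with 3 false calls. Few peaks were changed in the simulation, which makes its adjusted threshold stricter than in the real fits, so these shares do not carry over to the repair genes. Some genes are not reported here.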

Additional observations from a re-analysis of the deposited data

Results flagged for a closer look

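These genes were called in opposite directions against control in 2 resistant lines. Since the control is shared, the difference between the lines is the sum of the 2 sizes and is no independent support. BRCA1, read at its outermost RefSeq end, was 0.47 above control in cisplatin-resistant and -0.39 from it in dual-resistant cells (log2). The difference between the lines was -0.85. At the BRCA1 peak beside the start of NBR2 the cisplatin-resistant value of 0.19 was not called. PARP1 differed by 1.63 between paclitaxel-resistant and cisplatin-resistant cells and XRCC2 by 0.74 between the same lines. POLH differed by 0.99 between paclitaxel-resistant and cisplatin-resistant cells and by -0.83 between dual-resistant and paclitaxel-resistant cells. With 5 Mb medians subtracted, none of these 5 cases kept both calls: BRCA1 was at 0.07 and PARP1 at -0.32 in cisplatin-resistant cells, XRCC2 at -0.30 in cisplatin-resistant and 0.05 in paclitaxel-resistant cells, and POLH at -0.048 in paclitaxel-resistant cells. Both XRCC2 calls also ended without any 1 of the libraries compared.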

How the results depend on the processing

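Of 159 counts of calls recomputed under alternatives, 136 stayed within 1.5 times the reported count. Dual-resistant against paclitaxel-resistant cells gave 19 called repair genes as reported, and 7 after quantile normalization, 9 after loess, 34 with median-ratio scaling, 30 with 5 Mb medians subtracted, 36 in edgeR and 32 in DESeq2. Dual-resistant against control gave 11, and 7 after loess and in DESeq2. Cisplatin-resistant against control gave 18, and 10 with 5 Mb medians subtracted, and the 43 peaks called over the spans in dual-resistant cells became 21 in DESeq2. Leaving out each library in turn gave 13 to 17 called genes for cisplatin-resistant, 5 to 11 for paclitaxel-resistant and 4 to 7 for dual-resistant cells against control. It gave 11 to 16 for dual-resistant against cisplatin-resistant, 15 to 17 for dual-resistant against paclitaxel-resistant and 21 to 26 for paclitaxel-resistant against cisplatin-resistant cells, and 65 to 76, 28 to 39 and 15 to 23 peaks over the spans. The fewest paclitaxel-resistant calls (5) came without paclitaxel-resistant library 1 and the fewest dual-resistant ones (4) without control library 1. These fits have fewer samples, and a lone library is taken to vary like the other groups.

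Of 45 calls of single genes, 24 were lost with 5 Mb medians subtracted, 29 with at least 1 library left out, 5 in edgeR and 11 in DESeq2. Values turned to the other side of 0 with 5 Mb medians subtracted for RAD51C (-0.13), XPC (-0.028) and ERCC6 (-0.18) in cisplatin-resistant cells and POLH (-0.048) in paclitaxel-resistant cells. RAD50, ERCC6 and RAD51B in paclitaxel-resistant and NBN and RAD23B in cisplatin-resistant cells were the 5 calls lost under no alternative run. Over all gene ends the median difference moved by 0.17 after loess in cisplatin-resistant cells and by 0.17 with median-ratio scaling in paclitaxel-resistant cells; beyond the subtraction itself, the cause was not tested. Splits of higher and lower calls were also 9 and 5 in DESeq2 for cisplatin-resistant, 22 higher in edgeR and 19 higher in DESeq2 for paclitaxel-resistant, and 1 and 14 with median-ratio scaling, 1 and 15 in edgeR and 7 lower in DESeq2 for dual-resistant cells. With a replicate block, although same-numbered libraries did not deviate together, 18, 16 and 11 genes were called against control, and 0 calls were lost.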

Other observations

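Of 9 genes of non-homologous end joining, which rejoins broken ends without a template, 4 fell in cisplatin-resistant cells (44.4%, beside 28.6% of all gene ends lower), 3 fell in dual-resistant cells (33.3%, beside 14.8%) and 1 rose in paclitaxel-resistant cells (11.1%, beside 12.7% higher). Of 23 checkpoint and 53BP1 pathway genes, 1 rose and 7 fell in cisplatin-resistant cells (34.8% called, beside 39.7% of all gene ends), 3 rose in paclitaxel-resistant cells (13%, beside 22.4%), and 2 rose and 5 fell in dual-resistant cells (30.4%, beside 19.7%). Of 18 housekeeping genes, 2 rose and 7 fell in cisplatin-resistant cells (9 of 18 called, beside 18 of the 46 repair genes). In paclitaxel-resistant cells 6 rose and 0 fell (33.3% called, beside 34.8% of the repair genes and 22.4% of all gene ends). In dual-resistant cells 1 rose and 2 fell (16.7%, beside 23.9% and 19.7%). The called share in paclitaxel-resistant cells was therefore close in housekeeping and repair genes. A difference between these lists was not tested.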
